A study of Rattus norvegicus with 8 samples.

Results

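The genes described here encode the machinery that docks secretory vesicles, fuses them with a membrane and senses the calcium that triggers release. They are the syntaxins (Stx), SNAP-25-type proteins (Snap), VAMPs, syntaxin-binding proteins (Stxbp), synaptotagmins (Syt), complexins (Cplx), synapsins (Syn) and SV2 proteins, chosen by gene name on the array whatever their values. The names matched 60 genes with 70 probes and 106 spots, of 26269 gene names, 30367 probes and 42877 spots that are not array controls. In all, 54 of the 60 genes, with 64 probes, were bright enough to test, of 16574 genes tested on the array.

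The RNA came from the hypothalamus of lactating Wistar rats on postpartum day 7. One group was 4 control dams and the other 4 dams exposed to TCDD, a dioxin that binds the aryl hydrocarbon receptor. The sources used here do not give the dose, route or timing of TCDD, or the dams' age. The comparison asks whether dioxin exposure went with a different mRNA level of the release machinery in a maternal brain region that controls lactation, appetite and stress hormones.

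In exocytosis a VAMP on the vesicle (the v-SNARE) and a syntaxin with a SNAP-25-type protein on the target membrane (the t-SNAREs) zip into a helical bundle that pulls both membranes together. Munc18 proteins, named Stxbp here, hold and template the syntaxin, complexins clamp and then assist the partly zipped bundle, and synaptotagmins bind calcium and phospholipid to set off fusion. Synapsins tether vesicles in the reserve pool, and SV2 proteins are vesicle glycoproteins that help prime release. Hypothalamic neurons use this set both for fast transmitters and for the neuropeptides stored in dense-core vesicles. Other SNAREs of the same families work in endosomes, the Golgi and non-neuronal cells.

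Probe values are log2 signals minus the array's 75th percentile, which lay between 756 and 1077 intensity units. Between 69.3% and 73.7% of spots on an array were well above background, and arrays correlated with each other at r of 0.986 to 0.991 across probes. The 4 control arrays shared 1 slide and the 4 TCDD arrays another, so slide and exposure cannot be told apart in anything below. The number of arrays limits the precision. The labelled tissue was checked against 12 hypothalamic neuron markers, of which 11 were bright enough to test, including the neuropeptide genes Oxt, Avp, Hcrt, Pmch and Agrp. Of these 11, Trh was higher in TCDD dams at unadjusted limma p under 0.05, by 0.29, as was Olig2 among 9 oligodendrocyte markers, by 0.28. Markers of blood, choroid plexus and pituitary varied between arrays, and their values stand beside the results they moved with. Of 10 markers of neighbouring thalamus and cortex, 7 were bright enough to test, and some varied between arrays too. Prkcd ran from -1.51 to 0.20 and Tcf7l2 from -0.49 to 0.62 over the arrays. Their part in the members' values was not tested. In tissue RNA, fewer cells of a type and less RNA per cell cannot be told apart.

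3 members had an unadjusted p under 0.05, and their probes are shown because the text turns on them. Each is a 60-base oligonucleotide of the array design, written as in the scanner files with no base marked. The Stx19 probe lies on the unplaced sequence at chrUn:8165280-8165339 (plus strand) of the rat build rn4. The Syt10 probe lies at chr7:128143587-128143646 (minus strand). The Vamp7 probe spans 1055 bases at chr12:17248747-17249801 (minus strand), so its 60 bases match separated stretches of the genome. Exons and UTRs are not marked, because no rn4 gene annotation was at hand.
Stx19: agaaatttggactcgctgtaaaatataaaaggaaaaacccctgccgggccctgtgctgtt
Syt10: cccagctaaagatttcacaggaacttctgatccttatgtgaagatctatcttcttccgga
Vamp7: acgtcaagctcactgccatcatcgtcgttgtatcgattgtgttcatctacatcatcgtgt

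No member differed between the groups after adjustment over all genes (limma, Benjamini-Hochberg). The smallest adjusted p among the 54 members was 0.338, and 0.0241% of all genes tested, 4 of 16574, passed 0.05. The log2 fold change, TCDD minus control, was above 0 for 30 members and below 0 for 24. Its median was 0.01 over the members, 0.004 over all genes tested and -0.009 over the 11371 tested genes whose array name is a gene symbol. The sign of the members' median depends on the scaling, since it was between -0.02 and -0.008 with quantile normalization, with centring on the median, with normexp background correction and in the authors' deposited value table. The median size of the fold change without its sign was 0.06 for members and 0.07 for all genes.

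**Figure D1:**
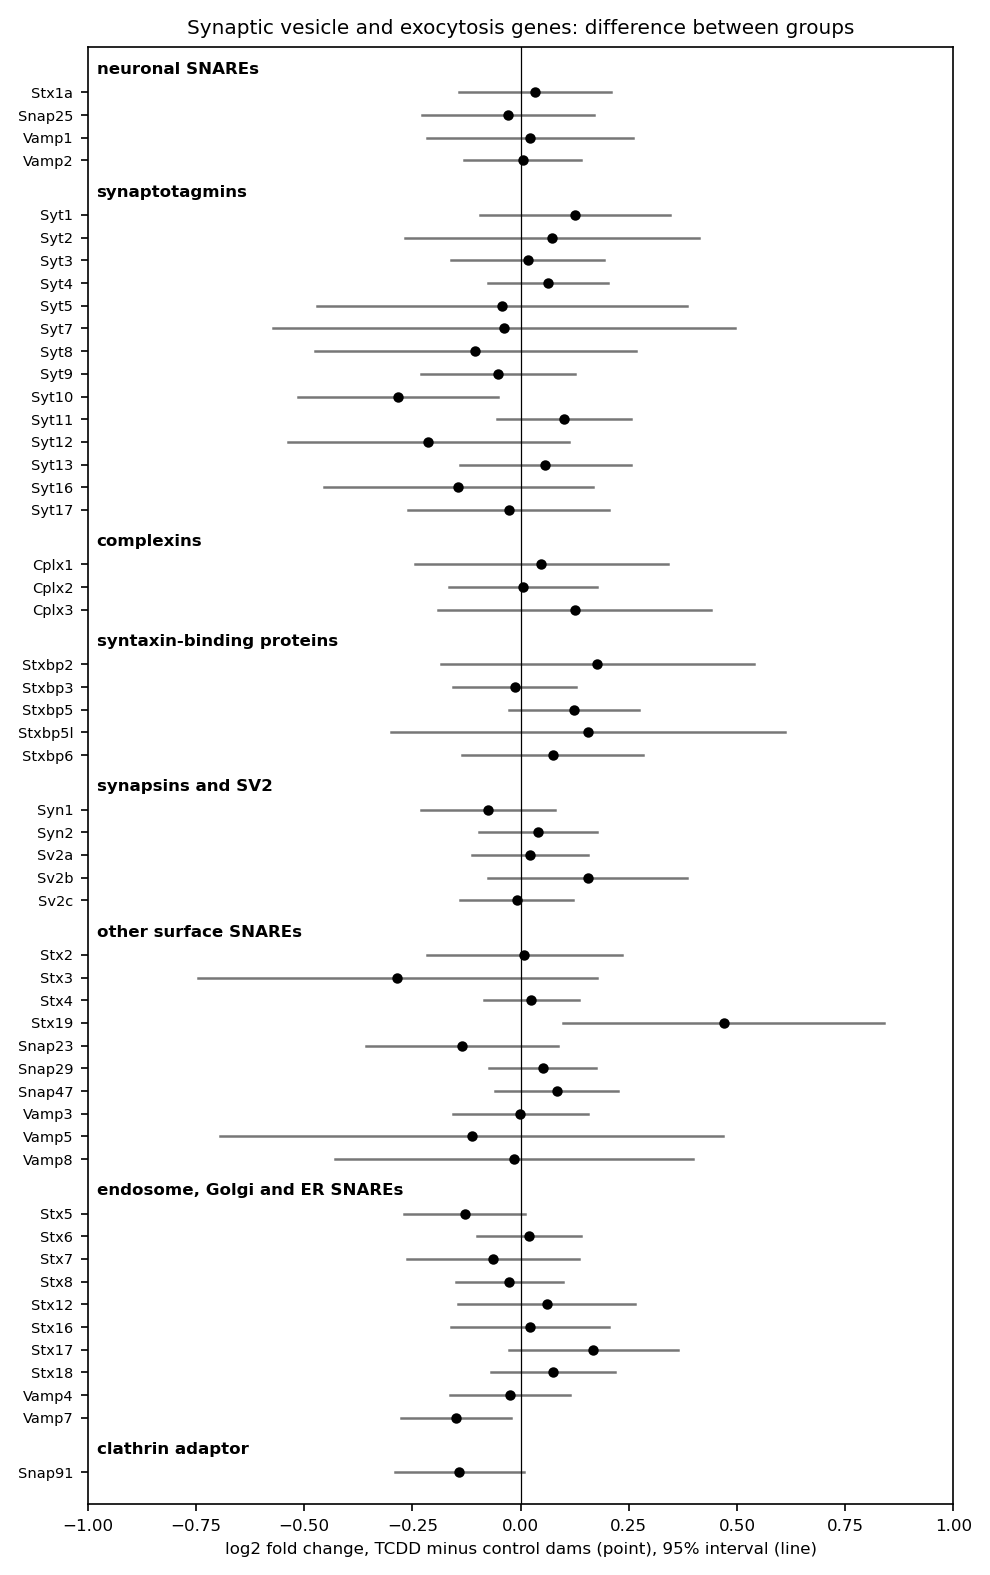
Log2 fold change (TCDD minus control dams, horizontal axis, log2 units) of 52 of the 54 tested synaptic vesicle and exocytosis genes, grouped by role. Points are limma estimates from 4 against 4 arrays and lines are 95% intervals. The intervals of the 4 neuronal SNAREs drawn cross 0 and stay between -0.23 and 0.26, while those of 3 genes, Stx19, Syt10 and Vamp7, do not cross 0.

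Before adjustment, 1 member was higher in TCDD dams at p under 0.05 (1.85% of 54), against 7.95% of all genes tested and 3.83% of genes with a symbol. Lower were 2 members (3.70%), against 2.82% of all genes and 3.24% of genes with a symbol. The members' share of higher genes lay below both backgrounds, and their share of lower genes was near them. Across all genes, 73.8% of those at unadjusted p under 0.05 were higher in TCDD dams on this scale. That split was 60.0% with quantile normalization, 61.0% with centring on the median and 60.3% in the authors' deposited value table. All 4 TCDD values lay on 1 side of all 4 control values for 1 member (1.85%), against 7.05% of all genes and 4.41% of genes with a symbol.

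The precision of these estimates can be read from their intervals. For 46 of the 54 members the 95% interval lay within 0.5 log2 units of 0, which is a 1.41-fold difference either way. For 24 of them it lay within 0.25, which is 1.19-fold. The median within-group SD was 0.119 for members, 0.121 for all genes and 0.116 for genes with a symbol. Differences smaller than these intervals allow were not detectable with 4 arrays a group.

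Of the neuronal SNAREs, Stx1a, Snap25, Vamp1 and Vamp2 help form the fusion bundle at nerve terminals. Snap25 read 3.85, 3.79, 3.70 and 3.51 on the control arrays and 3.81, 3.57, 3.70 and 3.65 on the TCDD arrays. The groups overlapped almost fully, and control replicate 4 held the lowest value. Its log2 fold change was -0.03, with a 95% interval from -0.23 to 0.17 (adjusted p = 0.951). Stx1a, the terminal syntaxin, read 2.80, 2.72, 2.72 and 2.52 in controls and 2.87, 2.65, 2.70 and 2.68 in TCDD dams. Its fold change was 0.03, from -0.14 to 0.21. Vamp2, the main vesicle SNARE of central synapses, read 2.90, 3.01, 2.92 and 2.88 in controls and 2.85, 2.88, 3.03 and 2.97 in TCDD dams. These 2 groups shared the same range, and the fold change was 0.005, from -0.13 to 0.14. Vamp1 had a fold change of 0.02. Adjusted p ran from 0.930 to 0.989 over these 4 genes.

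Synaptotagmins are vesicle proteins with paired C2 domains, of which Syt1, Syt2 and Syt9 are fast calcium sensors and Syt7 a slower, high-affinity one. Of 14 tested, 6 were above 0 and 8 below, with a median of -0.03, and 1, Syt10, had an unadjusted p under 0.05. Syt1 read -1.73, -1.65, -1.44 and -1.76 in controls and -1.45, -1.66, -1.62 and -1.35 in TCDD dams. The groups overlapped, and the fold change was 0.13, from -0.09 to 0.34 (adjusted p = 0.725). Syt2 and Syt9 had fold changes of 0.07 and -0.05, and Syt7 had -0.04 with a wide interval from -0.57 to 0.50. Syt7 was well above background on 3 of 4 TCDD arrays. Syt4, which sits on peptide-containing vesicles and has been studied in oxytocin neurons, read 2.51, 2.46, 2.50 and 2.51 in controls and 2.63, 2.41, 2.55 and 2.63 in TCDD dams. Its fold change was 0.06, from -0.07 to 0.20. Syt3, Syt11, Syt13 and Syt17 lay between -0.03 and 0.10. Syt12, a synaptotagmin thought not to bind calcium, was among the 5 largest differences of all members, at -0.21 from -0.54 to 0.11 (adjusted p = 0.676). It ran from -1.99 to -1.54 in controls and -2.22 to -1.66 in TCDD dams, so the groups overlapped. Syt5 was among the more variable members, from 3.46 to 4.15 in controls and 3.43 to 4.04 in TCDD dams, with a fold change of -0.04.

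Syt10 is known as a sensor for the release of insulin-like growth factor from dense-core vesicles in olfactory neurons. It read -1.84, -1.93, -2.15 and -1.87 in controls and -2.04, -2.43, -2.19 and -2.26 in TCDD dams. The TCDD values were mostly lower, but TCDD replicate 1 lay above control replicate 3, so the groups overlapped. The log2 fold change was -0.28 with an SE of 0.10 and a 95% interval from -0.51 to -0.05. The limma p was 0.0221 before and 0.352 after adjustment over all genes, and the 2-sided exact permutation p was 0.0571. Over the alternatives of the closing section, the fold change of Syt10 ran from -0.35 to -0.19 and its adjusted p from 0.249 to 0.662.

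Complexins, the small proteins that grip the zipped SNARE bundle, were represented by Cplx1, Cplx2 and Cplx3. Cplx1 read 4.72, 4.87, 4.70 and 4.24 in controls and 4.63, 4.63, 4.76 and 4.70 in TCDD dams. Control replicate 4 was the lowest of all 8 values by a wide margin. The fold change was 0.05 and turned to -0.08 without that array. Cplx2 and Cplx3 had 0.01 and 0.12, with adjusted p of 0.988 and 0.822. Cplx4, a complexin best known from the retina, was dim on all 8 arrays.

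Of 6 tested Stxbp genes, which encode syntaxin-binding proteins, 4 were above 0 and 2 below. Stxbp5, called tomosyn, which competes with VAMPs for the t-SNAREs, had 0.12 from -0.03 to 0.27 (adjusted p = 0.570). Its relative Stxbp5l had 0.16 from -0.30 to 0.61, and Stxbp3, the Munc18 of many cell types, had -0.01. Stxbp2, the Munc18 of epithelial and blood cells, had 0.18 from -0.18 to 0.54. It and Stxbp5l were well above background on 3 of 4 TCDD arrays.

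Among synapsins and SV2 proteins, 3 of 5 tested were above 0 and 2 below, and none had an unadjusted p under 0.05 in limma. Syn1 read -0.42, -0.59, -0.61 and -0.68 in controls and -0.58, -0.72, -0.65 and -0.66 in TCDD dams. The TCDD values lay within or just below the control range, with a fold change of -0.08 from -0.23 to 0.08 (adjusted p = 0.770). Syn2 had 0.04, and Syn3 exceeded background clearly on 3 control arrays and 1 TCDD array and was not tested. Sv2a, the SV2 form of most synapses, read 2.36, 2.29, 2.34 and 2.23 in controls and 2.32, 2.25, 2.29 and 2.44 in TCDD dams. Its fold change was 0.02, from -0.11 to 0.16. Sv2b had 0.16 from -0.08 to 0.39, and Sv2c had -0.01.

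**Figure D2:**
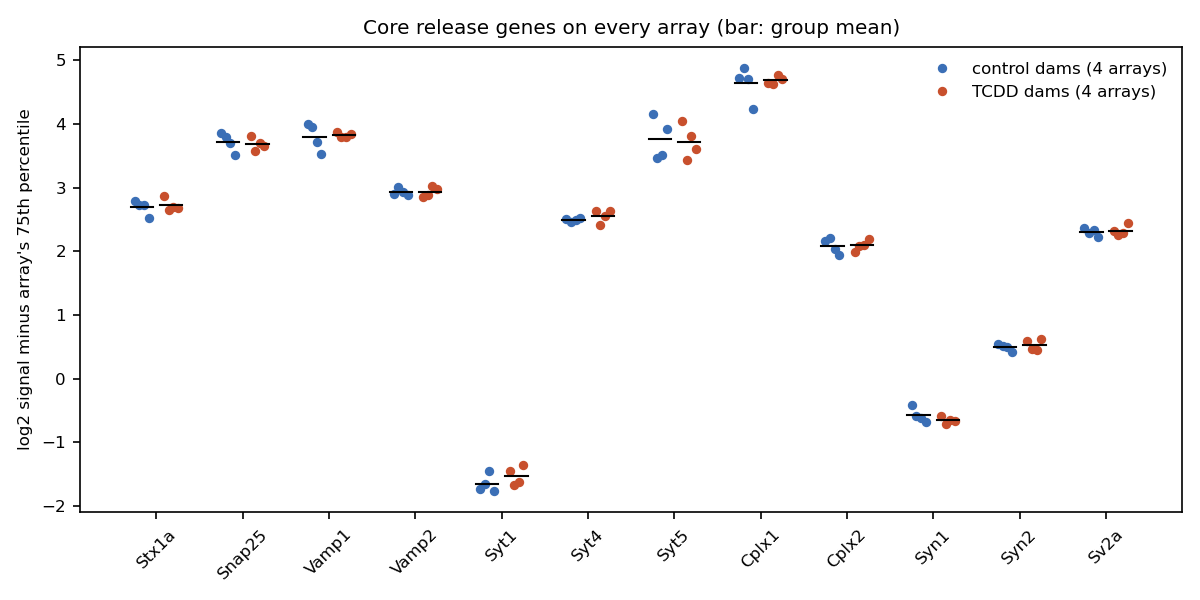
Log2 signal minus the array's 75th percentile (vertical axis) of 12 core release genes on each of the 8 arrays, with 4 control and 4 TCDD points per gene and bars at the group means. Within each gene the 2 groups overlap, and the gap between means is 0.13 or less in size. Heights of different genes are not comparable, since probes differ in affinity.

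The other surface SNAREs serve constitutive, epithelial and immune-cell secretion. Of the 10 tested, 5 were above 0 and 5 below. Snap23, the ubiquitous relative of Snap25, had -0.14 from -0.36 to 0.09 (adjusted p = 0.702). Snap29 and Snap47 had 0.05 and 0.08. Stx4, the general plasma membrane syntaxin, had 0.02 from -0.09 to 0.14, with the smallest within-group SD of all members at 0.0439. Vamp3 and Vamp8, the v-SNAREs of recycling and secretory endosomes, had -0.0004 and -0.01. Stx3, an apical and ribbon-synapse syntaxin, had the largest difference below 0, -0.28 from -0.75 to 0.18 (adjusted p = 0.701). Its probe was well above background on 3 of 4 TCDD arrays, and the values ran from -5.81 to -5.08 in controls and -6.07 to -5.34 in TCDD dams.

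Stx19, a syntaxin-like protein without the usual membrane anchor, had the largest difference of all members. It read -3.56, -3.60, -3.66 and -2.96 in controls and -3.19, -3.01, -2.84 and -2.85 in TCDD dams. Of the controls 3 lay below every TCDD value, while control replicate 4 lay above 2 of the TCDD arrays. The log2 fold change was 0.47 with an SE of 0.16 and a 95% interval from 0.10 to 0.84, a 1.38-fold difference. The limma p was 0.0191 before and 0.338 after adjustment, and the exact permutation p was 0.0857. The Stx19 fold change was 0.28 with normexp background correction and 0.63 without control replicate 4, and over all alternatives the adjusted p ran from 0.0672 to 0.624. Red blood cell genes varied alongside it. All 5 of 5 on that list had higher means in TCDD dams, 4 of them at unadjusted p under 0.05 and 0 after adjustment. The differences of those 4 were 0.90 for Hbb, 0.69 for Hba-a2, 1.08 for Hbb-b1 and 1.49 for Alas2. Hbb, a beta globin, read 4.32, 4.47, 4.77 and 5.76 in controls and 5.26, 6.06, 5.69 and 5.90 in TCDD dams. As with Stx19, control replicate 4 stood among the TCDD values. The list's summed signal was 109 to 290 times the array's 75th percentile in controls and 187 to 342 times in TCDD dams. Its part in the Stx19 difference was not tested.

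The SNAREs of endosomes, the Golgi and the endoplasmic reticulum had 5 genes above 0 and 5 below. Vamp7, a longin-domain v-SNARE of late endosomes and lysosomes that also serves neurite growth, was the member whose groups did not overlap. It read 1.49, 1.57, 1.42 and 1.38 in controls and 1.32, 1.34, 1.32 and 1.27 in TCDD dams. Every TCDD value was below every control value, the nearest pair being 1.38 and 1.34. The log2 fold change was -0.15 with an SE of 0.06 and a 95% interval from -0.28 to -0.02. The limma p was 0.0260 before and 0.363 after adjustment, and the exact permutation p was 0.0286, the smallest that 70 assignments of the arrays can give. Stx17, the autophagosome syntaxin, had 0.17 from -0.03 to 0.36 (adjusted p = 0.544). Stx5, a Golgi syntaxin, had -0.13, and Stx6, Stx7, Stx12 and Vamp4 lay between -0.06 and 0.06. Snap91, which shares the name but is the clathrin assembly protein AP180 and no SNARE, had -0.14 from -0.29 to 0.01 (adjusted p = 0.485).

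**Figure D3:**
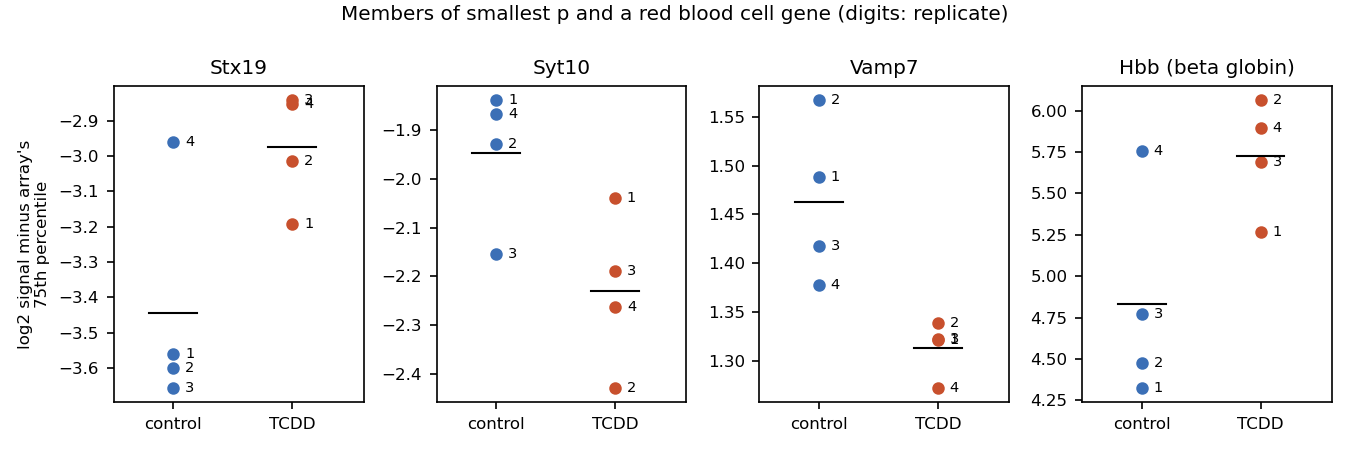
Log2 signal minus the array's 75th percentile (vertical axes, each with its own range) of Stx19, Syt10, Vamp7 and the beta globin gene Hbb on the 4 control and 4 TCDD arrays. Digits give the replicate and bars the group mean. Control replicate 4 lies among the TCDD arrays for Stx19 and Hbb, and only for Vamp7 are the groups apart.

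In all, 6 members could not be tested. Cplx4, Stx11, Stxbp4 and Syt15 were well above background on 0 arrays, Syn3 was on 3 control arrays and 1 TCDD array, and Syt6 was on 3 of each. Stx3, Stxbp2, Stxbp5l, Syt7 and Syt8 were tested but dim on 1 TCDD array each. Where a gene had several passing probes, as 9 members did, the brightest stood for it. The probes of Stx2 disagreed, at 0.01 for the brighter and 0.39 for the other (limma adjusted p = 0.988 and 0.553), and with normexp correction the brighter gave -0.21. The 3 probes of Stx16 gave 0.02, 0.16 and 0.12, and those of Snap25 gave -0.03 and -0.08.

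By signal, the members' probes spread over the whole range of tested genes. Their median percentile was 55.4, with 7 above the 90th percentile, 17 above the 75th and 13 below the 25th. Each gene was ranked by its brightest passing probe alone. On that choice the neuronal SNAREs stood between 89.2 and 94.3, Cplx1 at 97.1, Syt5 at 94.1 and Vamp3 at 91.2. Other passing probes of a gene could be far dimmer. Their means were -1.72 against 3.81 for Vamp1 and 0.07 against 4.66 for Cplx1. At the low end were Stxbp2 at 0.199, Stx3 at 2.24 and Stxbp5l at 3.19. A rank depends on how well a probe binds as well as on its mRNA, and it does not order the transcripts. Among the 17 members above the 75th percentile, the largest difference in size was that of Vamp7, 0.15.

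**Figure D4:**
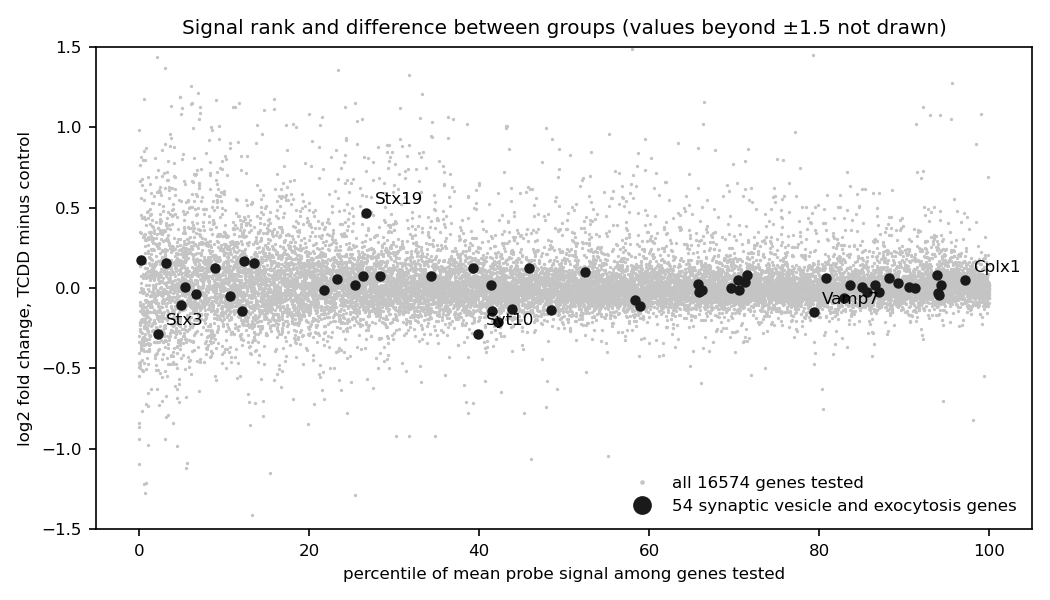
Log2 fold change (vertical axis, TCDD minus control) against the percentile of mean probe signal among genes tested (horizontal axis), with 16574 genes in grey and the 54 members in black. Members above the 75th percentile stay within 0.15 of 0, while Stx19 at percentile 26.7 reaches 0.47 and Stx3 at 2.24 reaches -0.28.

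Within the groups, control replicate 4 and TCDD replicate 2 stood apart, a pattern noticed after the values were seen and given as a description. The median deviation of the members from their group means was -0.06 on control replicate 4 and -0.05 on TCDD replicate 2, and between 0.0006 and 0.04 on the other 6 arrays. Of 54 members 29 (53.7%) had their lowest control value on control replicate 4, against 30.0% of all genes, and 25 (46.3%) had their lowest TCDD value on TCDD replicate 2, against 33.5% of all genes. Lowest on both were 16 members (29.6%), against 12.8% of all genes and 14.1% of genes with a symbol. Among them were Stx1a, Snap25, Cplx1, Syn1, Sv2a, Syt1, Syt3, Syt13, Syt16, Stxbp5, Stx7, Stx16, Stx17, Vamp4 and Snap91. With other scalings this count was 10 to 18, lowest with normexp background correction, where 8.73% of all genes did so.

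The neuronal SNAREs were lower on both of those arrays than on the rest of their group for 5 of 5 genes. Their median shift was -0.22 on control replicate 4 and -0.10 on TCDD replicate 2. Snap25 differed by -0.27 and -0.15 and Stx1a by -0.22 and -0.10 from the mean of the other 3 arrays of their group. Cplx1 differed by -0.53 on control replicate 4 but by -0.07 on TCDD replicate 2. The other surface SNAREs had a median shift of 0.22 on control replicate 4 but only 0.03 on TCDD replicate 2. Of these 10 genes, 5 were above on both arrays and 1 below on both, against 25.4% and 31.9% of all genes. Highest on both arrays were 5 members (9.26%), against 10.1% of all genes, a share near the background. These were Vamp5, Vamp8, Vamp3, Snap23 and Stxbp2, the last with a dim probe at signal percentile 0.199.

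**Figure D5:**
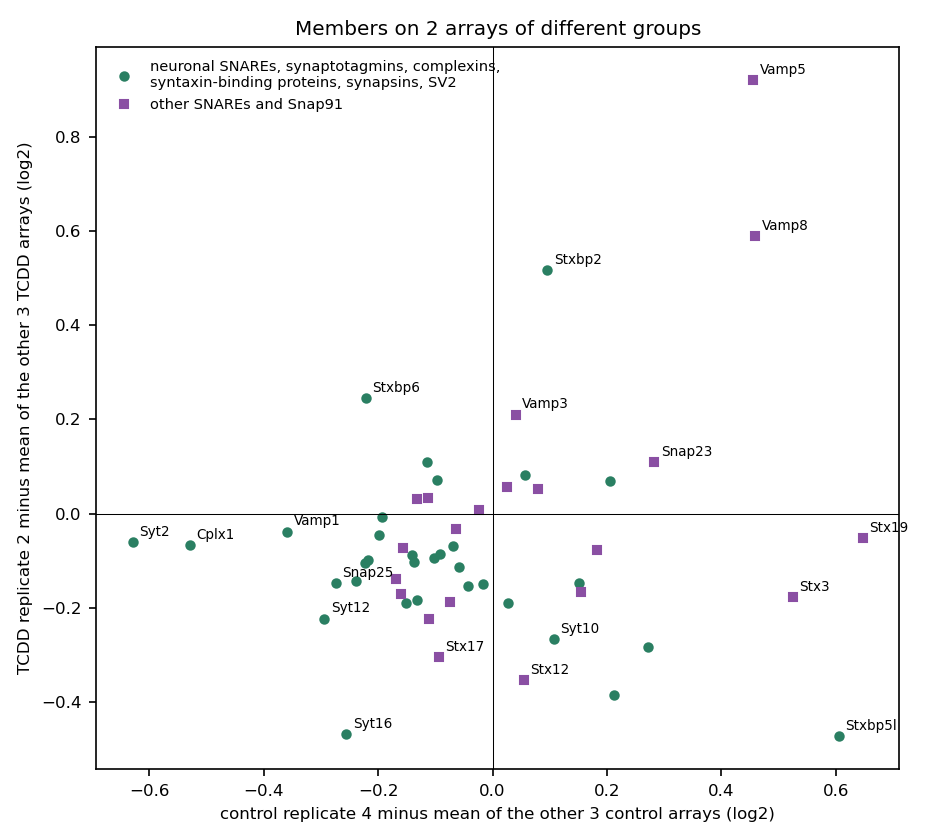
Each of the 54 members by its value on control replicate 4 minus the mean of the other 3 control arrays (horizontal axis, log2) and on TCDD replicate 2 minus the mean of the other 3 TCDD arrays (vertical axis, log2). Points at lower left, 28 of 54 (51.9%), are below on both arrays, against 31.9% of all genes, and the 9 at upper right (16.7%, against 25.4%), among them Vamp5 and Vamp8, are above on both.

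Of 10 marker lists, those of choroid plexus, pituitary, red blood cells and microglia were each highest of their group on both of these arrays. The summed hypothalamic neuron list was highest on TCDD replicate 2 alone, but its genes differed. Agrp, Pomc and Npy were highest of their group on both arrays, as were 10.1% of all genes. Agrp read 3.15 and 2.75 there, against 1.47 to 2.22 on the others. Crh and, by a narrow margin in controls, Trh were lowest of their group on both. The list's other tested genes were neither on both. The summed choroid plexus list, led by Ttr, had 2 of its 6 genes bright enough to test. In multiples of the array's 75th percentile it reached 2.64 on control replicate 4 and 4.24 on TCDD replicate 2. It read 0.888 to 1.69 on the others. Folr1, its other tested gene, was highest of its group on TCDD replicate 2 but not on control replicate 4. The pituitary list, led by Cga and with 3 of its 7 genes bright enough to test, reached 34.3 and 45.4. It read 1.22 to 4.51 on 5 of the others and 32.3 on TCDD replicate 4. The red blood cell list reached 290 and 342, with TCDD replicate 4 at 297. The microglia list read 23.4 and 22.7, against 19.3 to 22.7 on the others, and C1qb was its largest term. C1qa, C1qb and Cd68 were highest of their group on both arrays. Aif1 and Cx3cr1 were lowest of the controls on control replicate 4 and not highest on TCDD replicate 2. P2ry12, Csf1r and Itgam were not highest on TCDD replicate 2 either. Of the 5 other vesicle cycle lists, which hold no member, 3 were lowest of their group on both arrays. The vesicle membrane list read 141 and 140 against 153 to 158, the endocytosis list 203 and 206 against 204 to 212, and the synaptotagmin-like and exocyst list 12.5 and 12.02 against 12.8 to 14.2. The summed general neuron markers were not, at 201 and 189 within a range of 185 to 219, and Uchl1 was the largest term of that sum. Gene by gene, Thy1, Nefl, Elavl3, Stmn2 and Gap43 were lowest of their group on both arrays, as were 12.8% of all genes. Nefm, Nefh and Tubb3 were lowest on control replicate 4 alone, and Eno2, Elavl4 and Map2 on TCDD replicate 2 alone. Uchl1, Snhg11 and Rbfox3 were lowest on neither. The part of any of these in the members' values was not tested.

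Without control replicate 4 and TCDD replicate 2, in a fit added after the values were seen, again 0 members passed adjustment, as did 0 of all genes. At unadjusted p under 0.05, 5 members were higher, Stx12, Stx17, Stx18, Stx19 and Stxbp5l, against 8.55% of all genes. Lower were 2, Vamp7 and Snap91, against 3.49% of all genes. The groups of 8 members did not overlap, against 18.7% of all genes. Stx19 had the smallest adjusted p there, with a fold change of 0.64 (adjusted p = 0.121), and Stx17 had 0.22 (adjusted p = 0.273).

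Vamp5 and Vamp8, whose probes lie 18573 bases apart on chr4 of rn4, varied together across the arrays. Vamp5 read -1.01, -0.49, -0.37 and -0.17 in controls and -0.82, 0.07, -0.92 and -0.82 in TCDD dams. Vamp8 read -0.21, -0.00021, 0.17 and 0.45 in controls and -0.16, 0.53, -0.04 and 0.02 in TCDD dams. Both were highest on control replicate 4 within the controls and on TCDD replicate 2 within the TCDD dams. Across the 8 arrays Pearson's r was 0.94 (exact permutation p = 0.000397, adjusted 0.000794) and Spearman's rho 0.88 (exact permutation p = 0.00724, adjusted 0.0145). The correlation was 0.81 without the 2 arrays farthest from the median of Vamp5, and 0.95 after removing the group means. The adjustment was over the 2 pairs of members whose probes lie within 100000 bases of each other. Between the groups, Vamp5 differed by -0.11 from -0.69 to 0.47, with the widest within-group SD of all members, 0.413.

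Other genes of the vesicle cycle, from lists that hold no member, gave 0 differences after adjustment. Their counts at unadjusted p under 0.05 stand against 7.95% higher and 2.82% lower over all genes tested. Groups lay apart for 7.05% of all genes. Of 33 active zone and priming genes tested, 0 were higher and 1 lower. It was Rab3gap2, a regulatory subunit of the Rab3 GTPase-activating complex, at -0.18, with groups apart. Of 20 genes of SNARE disassembly and chaperoning, 5 of which had a fold change above 0 and 15 below, 0 were higher at that p and 2 lower. These were Nsf, the ATPase that takes spent SNARE bundles apart, at -0.24, and Sgta, a co-chaperone, at -0.16. Of 27 vesicle membrane and filling genes, 1 was higher and 1 lower. They were Atp6v1a, a subunit of the proton pump, at 0.13, and Slc18a2, the vesicular monoamine transporter. Slc18a2 read 0.50, 0.70, 0.90 and 0.71 in controls and 0.39, 0.47, 0.28 and 0.36 in TCDD dams, with groups apart and a fold change of -0.33 (limma adjusted p = 0.220). Of 28 endocytosis genes 1 was higher, Ston1 at 0.52, and 0 lower, while Ap2m1, a clathrin adaptor subunit, had groups apart at 0.07. The Ston1 probe was dim, with means of -5.86 in controls and -5.34 in TCDD dams, and its groups overlapped. The 12 synaptotagmin-like and exocyst genes held none in either direction. The medians of the 5 lists lay between -0.05 and 0.02.

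The DNA core bound by the aryl hydrocarbon receptor dimer is GCGTG, so the members' promoters were searched for those letters on both strands (CACGC on the other). RefSeq promoters of the build GRCr8, from 250 bases before to 50 after the gene start, were matched by symbol for 47 members. The motif was in 18 of them (38.3%) and in 31.1% of 27457 promoters of the same length. Of the tested members with the motif, 12 were above 0 and 5 below, with a median of 0.02, and 0 had an unadjusted limma p under 0.05. Of those without it, 16 were above 0 and 9 below, with a median of 0.05, and 1 had such a p. A match is a description of letters and not a bound site. Stx12 and Stxbp2 had the most matches, 3 each, and are shown for that reason, over the 250 bases before the start with the motif in capitals. The Stx12 stretch is chr5:150376347-150376596 (minus strand) and the Stxbp2 stretch chr12:6487076-6487325 (plus strand).
Stx12: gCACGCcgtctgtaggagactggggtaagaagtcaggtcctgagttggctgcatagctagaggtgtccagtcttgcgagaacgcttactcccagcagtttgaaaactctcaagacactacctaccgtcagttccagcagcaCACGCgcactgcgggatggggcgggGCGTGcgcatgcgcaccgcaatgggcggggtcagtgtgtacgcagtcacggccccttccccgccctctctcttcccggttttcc
Stxbp2: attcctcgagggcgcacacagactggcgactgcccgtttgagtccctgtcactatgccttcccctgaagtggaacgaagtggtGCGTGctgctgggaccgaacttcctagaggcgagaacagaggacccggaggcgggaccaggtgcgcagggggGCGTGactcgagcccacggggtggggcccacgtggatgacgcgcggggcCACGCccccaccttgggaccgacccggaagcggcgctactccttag
Stx12 itself read 1.46, 1.57, 1.53 and 1.58 in controls and 1.71, 1.33, 1.65 and 1.69 in TCDD dams. TCDD replicate 2 was lowest and the other TCDD arrays were above every control, with a fold change of 0.06 from -0.14 to 0.26 (adjusted p = 0.879).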

How the data were processed

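Hypothalamic RNA of 8 dams was hybridised to 1-colour Agilent rat arrays, 1 array a dam. Per the labels' protocols, tissue was kept in RNAlater, RNA was extracted with RNeasy, and Cy3 cRNA was made with a low-input kit. The deposited scanner files hold intensity values on a linear scale from Agilent Feature Extraction 10.7.1.1 with rn4 coordinates, per the file headers. The authors' deposited value table also holds linear intensity values, with a median of 65.1 on every array, and matched each array's own scanner values (r of at least 0.999). Its direction is the same, how it was centred is unknown here, and it was used as 1 alternative.

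The processed signal was put on a log2 scale minus each array's 75th percentile over the 42877 non-control spots. The 1377 control spots and the spots marked as outliers by the scanner software were left out, which removed all spots of a probe on an array in 9 cases, and 0 spots were saturated. Spots of a probe were averaged. Probes were tested where all 4 arrays of 1 or both groups were well above background, and the brightest such probe stood for a gene. Groups were compared with lmFit and eBayes of limma 3.58.1 under R 4.3.3 (2-sided, a group term alone) and Benjamini-Hochberg adjustment over 16574 genes, and checked on simulated data. Single values were also tested by a 2-sided exact permutation over 70 assignments. Alternatives changed the background correction, scaling, filter, probe choice, variance model, block and arrays used. Slides hold 1 group each, so no fit separates them. The design text gives 4 dams a group. All 60 members matched a current rat symbol (GRCr8 table), each the same as the array's name.

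The members, gene lists, roles and alternatives were chosen with earlier results of these data known. Named were core members whatever their values, all members with an unadjusted p under 0.05 or groups apart, the 5 largest differences, members with disagreeing or partly dim probes, and list or marker genes by the same p or groups apart. Stx5, Stx16, Stx17, Stx18, Syt16, Stxbp4, Stx11, Syt15 and Vamp5 were named after their values were seen, as were the single general neuron markers. So were the other single cell and region markers given by their order or range over the arrays. Python 3.11.15 with matplotlib 3.10.9 drew the figures. Results of 2 members are not reported here by name, though counts and medians over the members include them.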

Additional observations from a re-analysis of the deposited data

Results flagged for a closer look

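In 7 of 108 groups of 4 arrays (54 members in each of 2 groups), 1 array's gap to its nearest neighbour took up more of the group's range than Dixon's 95% critical value allows. Chance gives about 1 in 20 such groups. The gap was 0.916 of the range for Cplx3, where control replicate 3 read -5.09 and the next control -4.90. It was 0.903 for Vamp5, where TCDD replicate 2 read 0.07 and the next TCDD array -0.82. It was 0.871 for Syt13, where TCDD replicate 1 was highest at -3.32 against -3.54. It was 0.863 for Stx19, where control replicate 4 was highest at -2.96 against -3.56. It was 0.852 for Stx12, where TCDD replicate 2 was lowest at 1.33 against 1.65. It was 0.843 for Sv2b, where TCDD replicate 4 was highest at -4.17 against -4.36. It was 0.832 for Stx6, where control replicate 1 was lowest at 1.82 against 1.92.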

How the results depend on the processing

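No member passed the adjusted threshold under any of the 23 alternatives, 2 of them chosen after seeing the data (the 75th percentile over probes, and leaving out control replicate 4 and TCDD replicate 2 together). The smallest adjusted p was 0.0672, for Stx19 without control replicate 4. Of 46 named genes, 27 changed sign at least once, but beyond 1 SE only Stx2 (-0.21 with normexp), and Cplx1 and Syt2 (-0.084 and -0.085 without control replicate 4, up to 0.128 and 0.163 without another single array). Members lower in TCDD dams at unadjusted p under 0.05 numbered 1 with normexp (1.68% of all genes) and without replicate 1 of both groups (1.83%). They numbered 4 with quantile normalization (4.48%), with centring on the median (4.37%), in the authors' value table (4.45%) and with the replicate number as a block (3.07%). Members higher numbered 2 with array weights (10.49% of all genes) and without replicate 1 of both groups (7.23%), and 5 without control replicate 4 and TCDD replicate 2 (8.55%). Groups apart numbered 2 with quantile normalization (7.56% of all genes), median centring (7.19%) and the authors' table (7.54%), 4 without replicate 1 of both groups (14.9%), and 8 without control replicate 4 and TCDD replicate 2 (18.7%). With each array left out in turn, the higher count ran from 0 to 4, the lower from 1 to 3 and the groups apart from 1 to 5, while the shares of all genes ran from 5.90% to 8.95%, 1.92% to 3.25% and 8.74% to 12.96%. The higher count was 0 without control replicate 3 or TCDD replicate 3, 3 without TCDD replicate 1 and 4 without TCDD replicate 2. The lower count was 1 without control replicate 1, control replicate 2 or TCDD replicate 2. Groups apart numbered 2 without control replicate 3, 3 without control replicate 2, control replicate 4 or TCDD replicate 4, 4 without TCDD replicate 1 and 5 without TCDD replicate 2. The members' median fold change ran from -0.005 to 0.03 in those fits. The members' deviations on arrays of the same number correlated at r from -0.05 to 0.23, and on arrays of different number at -0.33 to 0.33. With 4 arrays a group these values cannot tell whether the numbers pair the dams. Members past the adjusted threshold numbered 0 with the block, as did all genes. All genes past it numbered 4 in the reported fit, 20 with normexp, 28 with a trended variance, 95 with array weights, and 7 to 0 with an array left out. The cause of these changes was not tested. Probes near background include those of Stx3, Syt7 and Stxbp5l, each dim on 1 TCDD array.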
